A study of Sus scrofa with 6 samples.

Results

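HOX genes encode homeodomain transcription factors and lie in 4 chromosomal clusters, HOXA to HOXD, in which a low paralog number stands for an anterior or central position in the cluster and a high one for a posterior position. Along the body axis, genes of low number are generally expressed from more anterior levels than genes of high number, and fibroblasts of adult skin keep a HOX pattern that depends on body site. Genes with the same number in different clusters are called a paralog group and encode similar proteins. Of the 14900 mRNAs measured here, 6 were HOX genes of paralogs 1 to 8 by the names in the study's supplementary lists of mRNAs, namely HOXA2, HOXA5, HOXB8, HOXC4, HOXC5 and HOXD4. A reference table of pig gene names gave the 11 further rows of paralogs 1 to 8 that are described here (HOXA3, HOXA7, HOXB2, HOXB3, HOXB4, HOXB6, HOXB7, HOXC6, HOXC8, HOXD3 and HOXD8), which brings the number to 17.

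Each of 3 female Bama pigs aged 2 years gave 1 sample of white skin from its back and 1 of black skin from its buttock, cut to a depth of 8 mm, which makes 3 samples per skin. Bama pigs are a Chinese miniature breed with black ends and a white trunk. Color and body site changed together in all pigs, so a difference due to one cannot be told apart from a difference due to the other. Poly(A) RNA was sequenced, and expression was given as FPKM, fragments scaled by transcript length and by the number mapped, and the number of reads behind each value could not be derived from the files. Fold changes are white minus black on the log2(FPKM + 0.5) scale, which understates the change of genes with low FPKM, and a gene was called differentially expressed at an adjusted p below 0.05 in limma together with an absolute log2 fold change above 1.

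The names were not independent of the values for all 6 genes. HOXA5, HOXB8, HOXC4 and HOXC5 stood in the study's list of differentially expressed mRNAs, which was made from these same samples. The list of expressed mRNAs was used here in a shortened form, in which 99.5% of the 1998 rows were lower in white skin, against 69.1% of all mRNAs. The direction of these 6 genes is therefore a description and not independent evidence. The 11 further genes got their names from a table that does not rest on these values. They are the genes left once the 6 were set aside, so as a set they are not independent of the values either. HOXB1, HOXB5 and HOXD1 had no row among the mRNAs analysed, and no row could be matched to HOXA4 or HOXA6.

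Across paralogs 1 to 8, the share of genes with a negative log2 fold change was close to that over all mRNAs. HOXC4 and HOXC5 had the largest positive log2 fold changes. Few of the differences were larger than the spread between samples. HOXD3 was the one gene of the 17 that was called, down-regulated in white skin, and none of the 6 genes named in the supplementary lists was called. Before adjustment, 3 of the 6 (HOXA5, HOXB8 and HOXC5) had a limma p below 0.05, as did 28.4% of all mRNAs. Over all mRNAs 6.24% were called, 3.62% as lower and 2.62% as higher in white skin. Of the 17 genes, 11 had a negative and 6 a positive log2 fold change, where 69.1% of all mRNAs were negative. The 17 genes had a median of -0.49 and a range from -1.50 to 1.02, beside a median of -0.31 over all mRNAs. Quantile normalization moved the median of all mRNAs to -0.032 and that of the 17 genes to -0.074, with 7 of 17 then positive, and upper-quartile scaling gave -0.13 and -0.31. White and black samples did not overlap for 6 of the 17 genes, 5 lower and 1 higher in white skin, where 35.3% of all mRNAs did not overlap, 25.7% lower and 9.62% higher. White skin was lower in all 3 pigs for 6 of the 17 genes and higher in all 3 for 1, HOXC5, against 41.6% and 14.7% of all mRNAs.

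**Figure D1:**
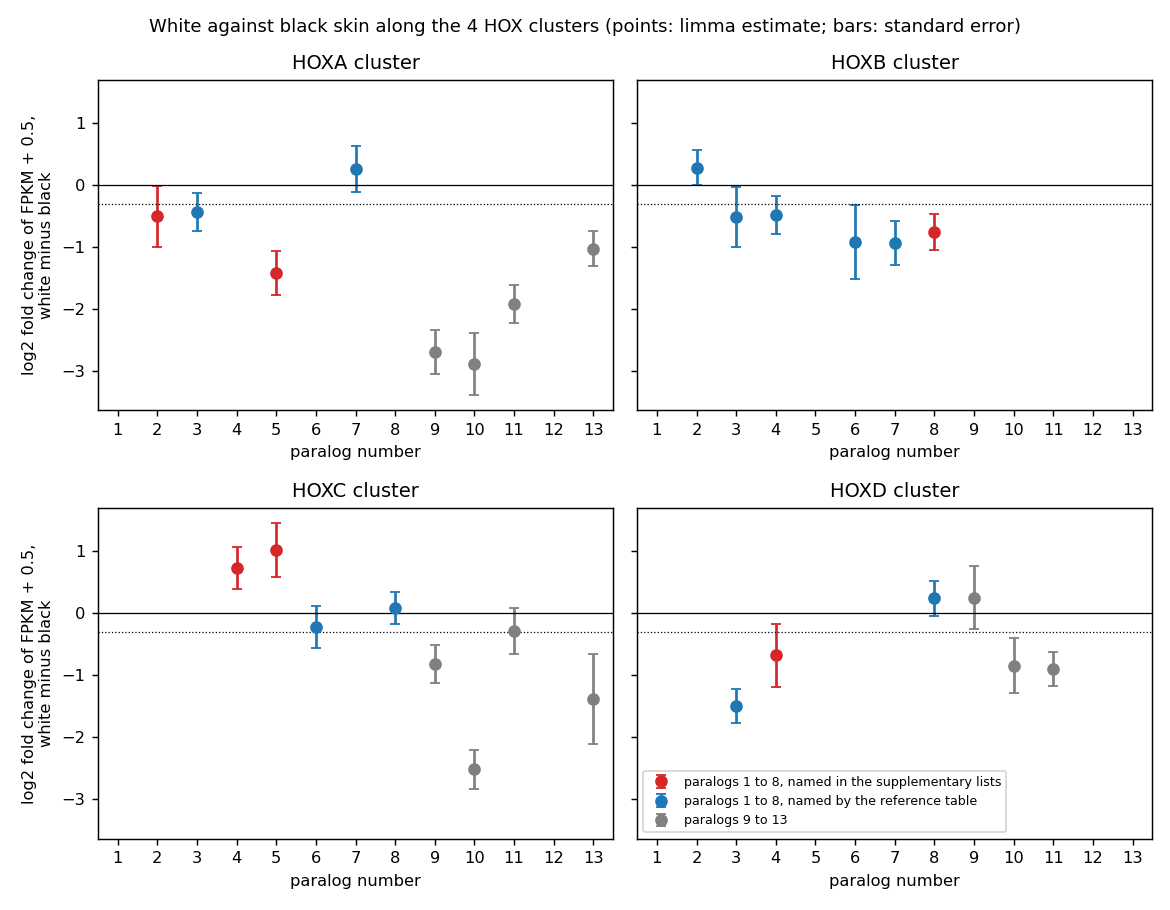
Log2 fold change of white against black skin (vertical axis, log2(FPKM + 0.5) scale) by paralog number (horizontal axis) in the 4 HOX clusters. Points are limma estimates from 3 samples per skin and bars are standard errors, red and blue points are paralogs 1 to 8, grey points are paralogs 9 to 13, and the dotted line is the median of all mRNAs at -0.31. HOXC4 and HOXC5 lie above 0, while HOXA5 and HOXD3 lie lowest among paralogs 1 to 8.

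HOXA5 had the lowest adjusted p among the 6 genes of the supplementary lists. HOXA5 is a central gene of the HOXA cluster, known for roles in the patterning of the neck and upper trunk and in lung development. It was listed with identifier ENSSSCG00000016703 on chromosome 18, from 45421657 to 45432918, of the pig genome build Sscrofa11.1. Its FPKM was 3.34, 5.17 and 3.87 in the white skin of pigs 1, 2 and 3, and 7.05, 12.6 and 17.9 in their black skin. Every black sample was above every white sample, and white skin was lower in all 3 pigs. The means were 4.12 ± 0.942 (SD, n = 3) in white and 12.5 ± 5.44 (SD, n = 3) in black skin, a ratio of 3.04. The log2 fold change of HOXA5 was -1.42 ± 0.36 (SE), and its adjusted p in limma was 0.0551, just short of the threshold. In the limma fit with the pig as a block the adjusted p of HOXA5 was 0.0367, and HOXA5 was then called, as were 9.66% of all mRNAs in that fit, 6.42% as lower in white skin. The listed locus of HOXA5 shares 11262 bp with the RefSeq span of HOXA3 and 6418 bp with that of HOXA6, so reads assigned to it may come in part from those genes.

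HOXA2 showed no such separation. HOXA2 patterns the hindbrain and the pharyngeal arches and was listed as ENSSSCG00000016706 on chromosome 18, from 45471060 to 45472875. Its FPKM was 0.552, 0.349 and 0.198 in white skin and 0.378, 2.25 and 0.251 in black skin of pigs 1 to 3. One black sample, that of pig 2, stood far above the other samples, and the remaining black samples lay within the white range. For HOXA2 the log2 fold change was -0.51 ± 0.50 (adjusted p = 0.511, limma), and without the black sample of pig 2 it was 0.074.

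**Figure D2:**
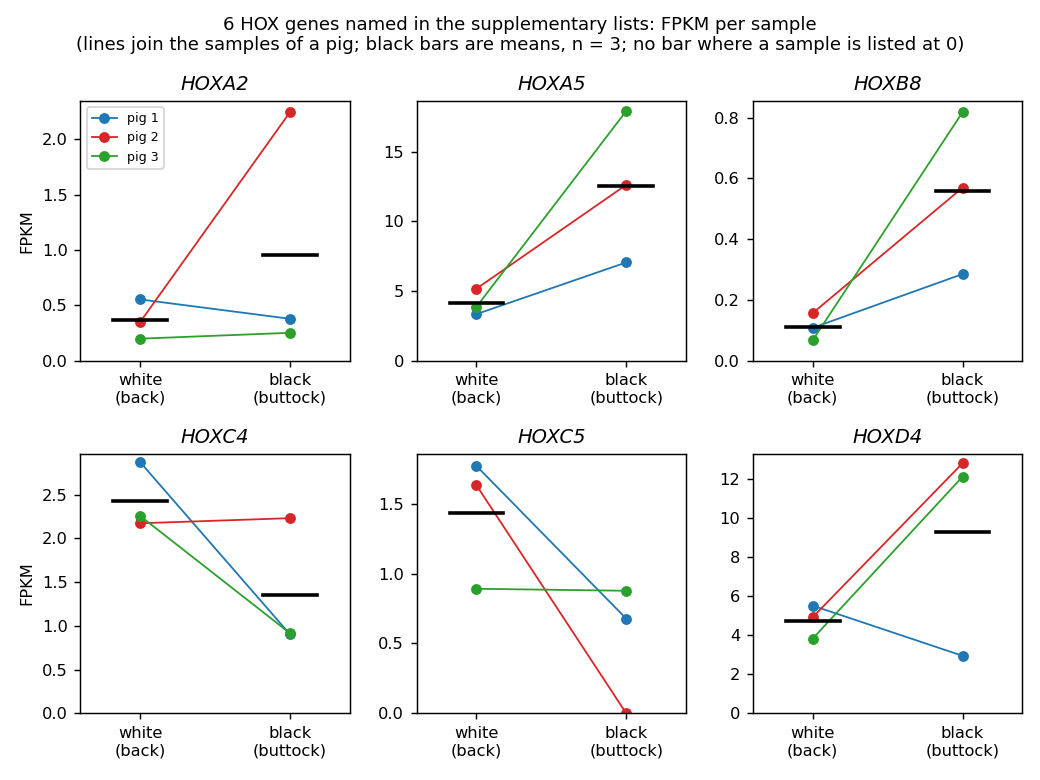
FPKM (vertical axes, each from 0) of the 6 HOX genes named in the supplementary lists, in white (back) and black (buttock) skin. Lines join the samples of a pig and black bars are means of 3 samples, with no bar where a sample is listed at 0. HOXA5 and HOXB8 are higher in black skin in all pigs, HOXC5 is higher in white skin in all pigs, and HOXC4 and HOXD4 change direction in 1 pig each.

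HOXB8, a gene of the trunk known from the mouse for roles in blood cells and grooming behaviour, was scarcely expressed. It was listed as ENSSSCG00000017537 on chromosome 12, from 24865838 to 24872518. Its FPKM was 0.108, 0.157 and 0.0671 in white skin and 0.285, 0.569 and 0.818 in black skin. The skins did not overlap, and white skin was lower in all 3 pigs, but all white samples and the black sample of pig 1 lay under the 0.5 FPKM that the study took as expressed. HOXB8 had a log2 fold change of -0.76 ± 0.29 and was not called (adjusted p = 0.131, limma).

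HOXC4 and HOXC5 are adjacent in the HOXC cluster on chromosome 5 and were the 2 genes of the 6 with higher values in white skin. HOXC4 is expressed in the neck region of the embryo and also in lymphocytes, where it takes part in class switching of antibody genes. It was listed as ENSSSCG00000038993 from 19252606 to 19270411, and its FPKM was 2.87, 2.17 and 2.26 in white skin and 0.903, 2.23 and 0.916 in black skin. White skin was higher in pigs 1 and 3, and in pig 2 the 2 samples were nearly equal, so the skins overlapped. The means were 2.43 ± 0.381 (SD, n = 3) in white and 1.35 ± 0.763 (SD, n = 3) in black skin. HOXC4 had a log2 fold change of 0.73 ± 0.34 (adjusted p = 0.201, limma).

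HOXC5, a central gene of the same cluster that belongs to the paralog group of HOXA5, was listed as ENSSSCG00000040798 from 19245934 to 19249855. Its FPKM was 1.77, 1.63 and 0.891 in white skin and 0.677, 0 and 0.877 in black skin. White skin was higher in all 3 pigs and the skins did not overlap, although in pig 3 they were close. The table gives 0 in some sample for 57 mRNAs that exceed 20 FPKM elsewhere, so the 0 of HOXC5 says only that it was listed at 0. The log2 fold change of HOXC5 was 1.02 ± 0.43 (adjusted p = 0.168, limma), and 0.57 (adjusted p = 0.322, limma) without the black sample of pig 2, which was the sample at 0. The FPKM of HOXC4 and HOXC5 added together was 4.64, 3.80 and 3.15 in white skin and 1.58, 2.23 and 1.79 in black skin. This sum was 2.07-fold higher in white skin, and each white sample was above each black sample. The sum was formed from genes already known to be higher in white skin. Both were named through the study's list of differentially expressed mRNAs, and HOXC4 alone overlapped between the skins. The separation of the sum is therefore a description and carries no test. Of all mRNAs, 9.62% did not overlap and were higher in white skin.

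HOXD4, of the same paralog group as HOXC4, is known for patterning the upper neck vertebrae. It was listed as ENSSSCG00000015984 on chromosome 15, from 81952858 to 81972718. Its FPKM was 5.50, 4.92 and 3.82 in white skin and 2.94, 12.8 and 12.1 in black skin. Pigs 2 and 3 had far higher values in black skin, while pig 1 had a higher value in white skin. The log2 fold change of HOXD4 was -0.68 ± 0.51 (adjusted p = 0.399, limma). Without the black sample of pig 1 it was -1.31 ± 0.26 (adjusted p = 0.0443, limma), and HOXD4 was then called. The listed locus of HOXD4 shares 3237 bp with the RefSeq span of HOXD3, so the values of these neighbours may not be independent.

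In order of level, HOXD4 and HOXA5 had the highest FPKM of the 6 genes in white skin and overlapped each other. HOXC4, HOXC5, HOXA2 and HOXB8 followed in that order, and neighbours among these did not overlap, nor did HOXC4 and the pair above it. In black skin HOXA5 and HOXD4 again were highest and overlapped. HOXC4 was below both in every black sample, its lowest value there, 0.903, was above every value of HOXC5 and HOXB8. HOXA2 overlapped HOXC4, HOXB8 and HOXC5 in black skin, and HOXB8 and HOXC5 overlapped each other.

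HOX genes of different clusters were also set against each other within samples, as ratios of FPKM + 0.5, which depend little on scaling between samples except for genes near the 0.5 added. A ratio shows that 2 genes changed unequally and not which of them changed. The log2 ratio of HOXC4 to HOXA5 was -0.19, -1.08 and -0.66 in white skin and -2.43, -2.26 and -3.70 in black skin of pigs 1 to 3. It was 2.15 higher in white skin, a 4.45-fold difference, without overlap and in 3 of 3 pigs. Within paralog group 5, the log2 ratio of HOXC5 to HOXA5 was -0.76, -1.41 and -1.65 in white skin and -2.68, -4.71 and -3.74 in black skin. It was 2.44 higher in white skin, a 5.43-fold difference, again in 3 of 3 pigs, and 1.94 higher without the black sample in which HOXC5 was listed at 0. The size of this difference depended on the value added, at 3.31 with 0.1 and 2.04 with 1. Within paralog group 4, the log2 ratio of HOXC4 to HOXD4 was -0.83, -1.02 and -0.65 in white skin and -1.30, -2.28 and -3.15 in black skin. It was 1.41 higher in white skin, a 2.66-fold difference, in 3 of 3 pigs. These pairs were chosen with earlier results of these data known, and HOXC4, HOXC5 and HOXA5 were named through a list that rests on the same contrast, so the 3 ratios are a description and no p is given for them.

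**Figure D3:**
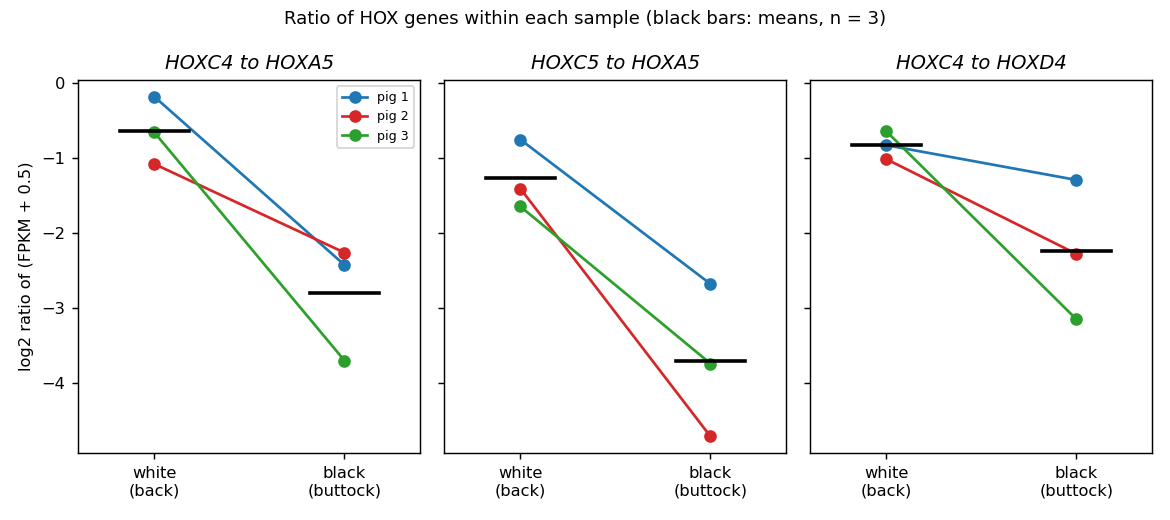
Log2 ratio of FPKM + 0.5 (vertical axis) between HOX genes of the same sample, for HOXC4 to HOXA5, HOXC5 to HOXA5 and HOXC4 to HOXD4. Points are samples, lines join the samples of a pig and black bars are means of 3 samples. In each panel the 3 white samples lie above the 3 black samples, for HOXC4 to HOXA5 between -1.08 and -0.19 against -3.70 to -2.26.

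Among the 11 further genes, HOXD3 was down-regulated in white skin. HOXD3 lies beside HOXD4, patterns the first neck vertebrae and is known for effects on cell adhesion. Its FPKM was 0.478, 0.436 and 0.416 in white skin and 1.61, 2.63 and 2.40 in black skin. The skins did not overlap, and the white samples differed little from each other. All white samples of HOXD3 lay under the 0.5 FPKM that the study took as expressed. HOXD3 thus passed that threshold only through black skin, so its direction is not independent of the threshold. The mean FPKM was 0.443 ± 0.0315 (SD, n = 3) in white and 2.21 ± 0.536 (SD, n = 3) in black skin, a ratio of 4.99. In limma HOXD3 had a log2 fold change of -1.50 ± 0.28 (adjusted p = 0.0262). With quantile normalization it was -1.12 (adjusted p = 0.0549, limma), and with 1 sample left out the adjusted p of HOXD3 ranged from 0.0304 to 0.117, with the call kept only without the black sample of pig 1.

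The other anterior genes, of paralogs 1 to 3, mostly had negative log2 fold changes, and none of them passed the test. HOXA3, which is needed for the thymus and parathyroid, was at 0.793, 0.769 and 0.782 FPKM in white skin and 0.794, 1.86 and 1.23 in black skin. The black sample of pig 1 thus lay at the level of the white samples for HOXA3, although the groups formally did not overlap (log2 fold change -0.44). HOXB3, another hindbrain gene, was at 1.39, 1.30 and 1.05 in white skin and 0.775, 4.73 and 1.87 in black skin (log2 fold change -0.53). As with HOXA2, its highest value was in the black sample of pig 2. HOXB2, which patterns the facial nerve region, went the other way, at 4.65, 4.46 and 5.09 in white skin and 3.46, 2.99 and 5.32 in black skin, and the skins overlapped (log2 fold change 0.28).

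The central genes of the HOXB cluster also had negative log2 fold changes, and none was called. HOXB7, known from studies of melanoma cells as an activator of growth factor genes, was at 0.967, 0.876 and 1.36 FPKM in white skin and 1.37, 3.27 and 3.31 in black skin. White skin was lower in all 3 pigs, and the highest white sample lay just under the lowest black sample (log2 fold change -0.94 ± 0.36, adjusted p = 0.131, limma). HOXB6 was at 1.02, 0.647 and 3.16 in white skin and 1.22, 3.18 and 6.43 in black skin (log2 fold change -0.93). HOXB6 was higher in black skin within each pig, but the skins overlapped because pig 3 was high in both. HOXB4, which is known to expand blood stem cells, was at 2.09, 1.73 and 2.24 in white skin and 2.01, 3.67 and 3.66 in black skin (log2 fold change -0.49), and pig 1 showed almost no difference.

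The 4 genes with the smallest log2 fold changes of the 17 were all of paralogs 6 to 8. HOXD8 was the most abundant gene of the 17 by mean FPKM, at 9.74, 9.51 and 9.55 in white skin and 5.62, 8.07 and 11.5 in black skin (log2 fold change 0.24). The white samples of HOXD8 lay close together, inside the wide range of the black samples. HOXA7, known as a repressor of keratinocyte differentiation genes, was at 7.56, 8.24 and 4.02 in white skin and 3.32, 7.30 and 5.83 in black skin (log2 fold change 0.25). HOXC8, which patterns the thorax, was at 5.67, 4.54 and 4.10 in white skin and 4.05, 4.15 and 5.20 in black skin (log2 fold change 0.082). HOXC6, a thoracic gene also known from mammary gland and limb, was at 3.80, 3.77 and 4.78 in white skin and 4.33, 3.35 and 7.90 in black skin (log2 fold change -0.23, and positive with quantile normalization). The skins overlapped for all 4 of these genes, and none had a consistent direction in the 3 pigs.

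**Figure D4:**
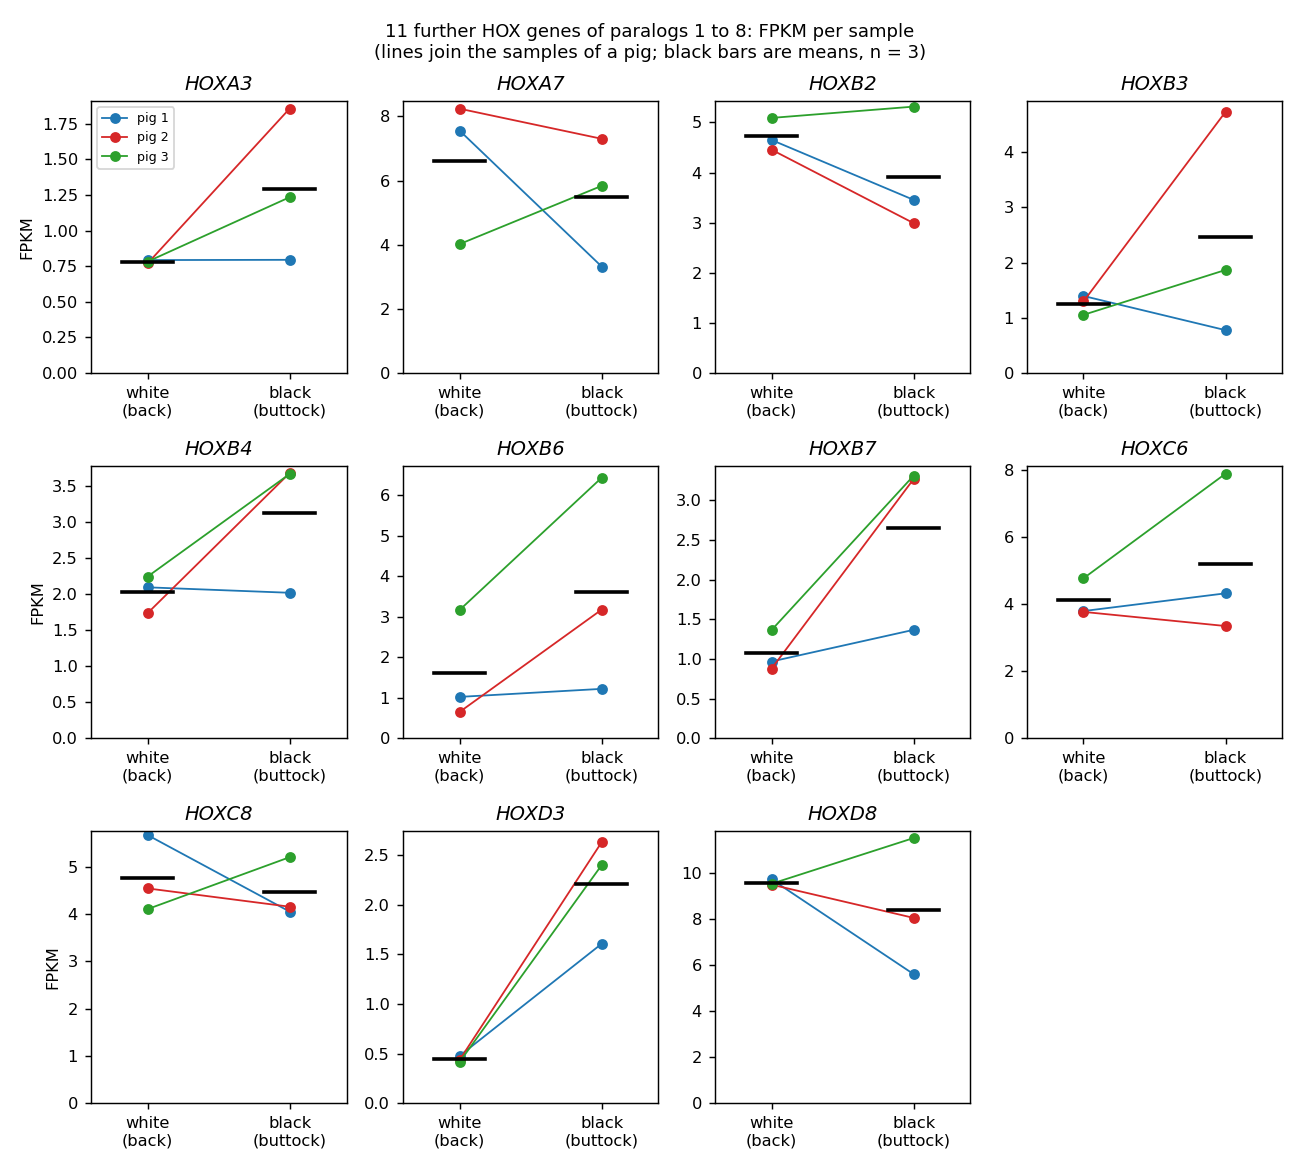
FPKM (vertical axes, each from 0) of the 11 further HOX genes of paralogs 1 to 8, in white (back) and black (buttock) skin. Lines join the samples of a pig and black bars are means of 3 samples. For HOXD3 the white samples sit between 0.416 and 0.478 and the black samples between 1.61 and 2.63, while for HOXA7, HOXC6, HOXC8 and HOXD8 the skins overlap.

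By cluster, HOXC was the one with a positive median. Of its 4 genes of paralogs 1 to 8, 3 had a positive log2 fold change, with a median of 0.41, and with quantile normalization 4 of 4 were positive, with a median of 0.77. The medians of the other clusters were -0.48 over 4 HOXA genes, -0.64 over 6 HOXB genes and -0.68 over 3 HOXD genes, in each of which 1 gene was positive. By paralog number, the medians were -0.51 over the 5 genes of paralogs 1 to 3, -0.49 over the 5 of paralogs 4 and 5, and -0.23 over the 7 of paralogs 6 to 8. Spearman's rho between paralog number and log2 fold change was 0.022 over the 17 genes, which share the same 6 samples. With the 11 posterior genes included it was -0.43 over 28 genes, and within clusters it was -0.50 for HOXA, -0.77 for HOXB, -0.83 for HOXC and 0.086 for HOXD, over 8, 6, 8 and 6 genes.

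Summed over the 17 genes, FPKM was 52.3, 50.7 and 47.6 in white skin and 40.8, 75.6 and 87.6 in black skin. White skin was nearly constant between pigs, whereas black skin ranged from below all white samples, in pig 1, to far above them. The HOXA sum was 11.9 ± 2.85 (SD, n = 3) in white and 20.3 ± 7.58 in black skin, the HOXB sum 10.8 ± 1.97 and 16.3 ± 6.41, and the HOXD sum 14.8 ± 0.972 and 19.9 ± 8.52. The HOXC sum was 12.7 ± 1.17 in white and 11.5 ± 2.92 in black skin. The share of the HOXC genes in the total was 27.0%, 23.9% and 25.2% in white skin and 24.4%, 12.9% and 17.0% in black skin, so the skins overlapped through the black sample of pig 1. These are sums over genes chosen with results known and carry no test.

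**Figure D5:**
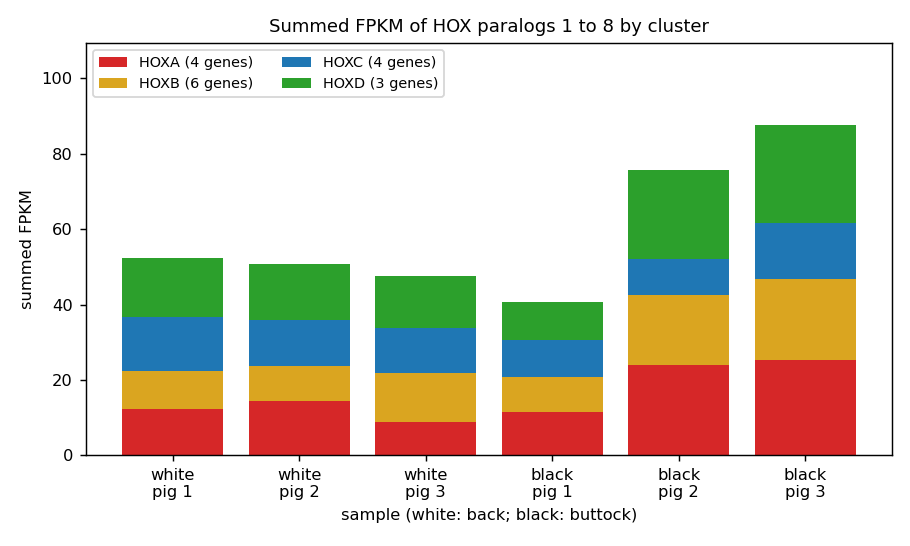
Summed FPKM (vertical axis, from 0) of the 17 HOX genes of paralogs 1 to 8 in each of the 6 samples, stacked by cluster. The white samples total between 47.6 and 52.3, the black sample of pig 1 totals 40.8, and the black samples of pigs 2 and 3 total 75.6 and 87.6.

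The black sample of pig 1 was the lowest of the 3 black samples for 13 of the 17 genes, against 44.0% of all mRNAs. Without it the limma fit called 3 of the 17 genes, HOXA5, HOXD3 and HOXD4, all lower in white skin, where 5.68% of all mRNAs were called, 3.69% as lower, and the median log2 fold change of the 17 genes was -0.73. The log2 fold change of HOXC4 was then 0.57 and that of HOXC5 1.19, neither called.

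The posterior genes of the same clusters had a lower median log2 fold change. Of 11 measured genes of paralogs 9 to 13, 10 had a negative log2 fold change (9 with quantile normalization) and 4 were called lower, with a median of -1.03, where 69.1% of all mRNAs were negative and 3.62% were called lower. All white samples of HOXA10, HOXA11, HOXA13, HOXC10, HOXC11 and HOXD11 lay under the 0.5 FPKM that the study took as expressed. These genes passed that threshold only through black skin. Their direction, and the median of the posterior genes, are therefore not independent of the threshold. HOXA10 and HOXA11, which pattern limbs and reproductive tract, fell in white skin in the cluster of HOXA2 and HOXA5, by 2.90 and 1.92 on the log2 scale (adjusted p = 0.0231 and 0.0194, limma). HOXA9, HOXA10 and HOXA11, all among the 4 called, have the same listed locus, from 45383109 to 45412639 on chromosome 18. Their values may therefore not be independent. HOXC10 fell by 2.52 in the cluster of HOXC4 and HOXC5 (adjusted p = 0.0113, limma). The mean FPKM of HOXC10 was 0.104 in white and 3.03 in black skin, and its log2 fold change had the opposite sign to those of HOXC4 and HOXC5, from which HOXC6, HOXC8 and HOXC9 separate it. A test of this difference between gene groups was not run, since genes of a cluster are not replicates.

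HOX proteins bind DNA together with PBX, MEIS and PKNOX proteins, which are homeodomain cofactors. Of 9 cofactor genes 7 were measured, 6 with a negative and 1 with a positive log2 fold change, where 69.1% of all mRNAs were negative. None was called in limma, where 6.24% of all mRNAs were (1 had an unadjusted p below 0.05, PKNOX2). The largest log2 fold changes were -0.79 for PBX4, -0.73 for PKNOX2 and -0.66 for MEIS2. The median was -0.55, beside -0.31 over all mRNAs. PBX3 alone was positive in the main fit, at 0.62. With quantile normalization 2 of the 7 were positive and the median was -0.13, beside -0.032 over all mRNAs. Expression of HOX genes is set by Polycomb and trithorax chromatin proteins and by retinoic acid, and 28 of 35 such regulators were measured. A negative log2 fold change was found for 22 of them, and their median was -0.36. With quantile normalization 11 of the 28 were positive and the median was -0.057. In the main fit 1 was called, lower in white skin, where 3.62% of all mRNAs were called lower. The retinoic acid receptor RARG, the main such receptor of epidermis, was called, with 13.7, 8.43 and 15.1 FPKM in white skin and 33.4, 26.7 and 23.8 in black skin (log2 difference of -1.17, adjusted p = 0.0472, limma, and 0.0836 with quantile normalization). CYP26B1, an enzyme that degrades retinoic acid, had a log2 fold change of -1.66 (adjusted p = 0.0579, limma, and 0.0315 with the pig as a block). EZH1, a Polycomb methyltransferase, had one of -1.39 (adjusted p = 0.0860, limma, and 0.0449 with the block), and ALDH1A2, an enzyme of retinoic acid synthesis, one of -1.30 (adjusted p = 0.0849, limma).

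Genes that flank the HOX clusters were split evenly in direction in the main fit, where 69.1% of all mRNAs had a negative log2 fold change. The split depended on scaling. Of the 10 measured neighbours, 8 were positive with quantile normalization, where 7098 of 14900 mRNAs were. With upper-quartile scaling 9 were positive, where 6156 of 14900 mRNAs were. Of 15 neighbours 10 were measured, 5 in each direction, and 2 were called, both on the side of the HOXA cluster and both higher in white skin, where 2.62% of all mRNAs were called higher. HIBADH, a mitochondrial enzyme of valine breakdown, was at 237.0, 228 and 102 FPKM in white skin and 22.2, 21.3 and 30.8 in black skin (log2 difference of 2.83, adjusted p = 0.0113, limma). TAX1BP1, an autophagy receptor, was at 82.9, 122 and 97.0 in white skin and 49.0, 37.9 and 59.1 in black skin (log2 difference of 1.04, adjusted p = 0.0470, limma, 0.0590 with the block, 0.0696 after quantile normalization).

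Of the lncRNAs, 3 lay at or within 5 kb of a listed locus of the 6 genes, 1 near HOXA2 and 2 at HOXD4. None was called, where 1.33% of 7566 lncRNAs were called, and none had an unadjusted p below 0.05. On the log2(FPKM + 0.1) scale the lncRNA TCONS_00049206, which starts 4317 bp from the HOXA2 locus, had a log2 fold change of 0.44 (adjusted p = 0.810, limma). TCONS_00038755 and TCONS_00038752 at HOXD4 had adjusted p of 0.824 and 0.879 in limma, and TCONS_00038752 was listed at 0 in 4 of 6 samples. The white and black samples of all 3 overlapped.

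The mRNAs whose log2 FPKM followed a HOX gene most closely over the 6 samples were given as a description. They were BRD2 and CNOT1 for HOXA5 (Pearson's r = 0.994 for both), SRSF10 and MCRIP1 for HOXA2 (0.996 and 0.993), PRR14 and HIP1 for HOXB8 (0.998 for both), SAE1 and DTYMK for HOXC4 (0.981 and 0.972), CFLAR and MPC2 for HOXC5 (0.996 and 0.991), and TMEM18 for HOXD4 (0.998). They were picked as the highest of 10848 mRNAs, over only 6 samples that share libraries and skins. HOXB8 had 858 and HOXA5 708 mRNAs with r above 0.9, HOXD4 had 199 and HOXA2 189, and HOXC5 had 71 and HOXC4 56.

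Markers of several cell types of skin moved with the same contrast. Over all mRNAs, 69.1% had a negative log2 fold change, 3.62% were called lower and 2.62% higher in white skin. An unadjusted p below 0.05 in limma was found for 28.4% of all mRNAs, and 9.66% were called with the pig as a block. The 8 fibroblast markers had a negative log2 fold change, 3 of them called (5 with the pig as a block), and their FPKM summed to between 2285 and 4839 in white and between 6014 and 10342 in black skin. All 6 adipocyte markers were called lower in white skin, with sums of 143 to 529 against 852 to 1976. The 5 measured endothelial markers had negative log2 fold changes, 3 called (5 with the block), with sums of 34.0 to 36.9 against 81.5 to 175. Of 6 melanocyte markers 5 were called lower in white skin, with sums of 1.33 to 1.64 against 30.3 to 161, and TYRP1 and MLANA were each listed at 0 in 2 white samples. The 6 measured hair follicle markers were not called in limma (5 at an unadjusted p below 0.05), while the block called 3, KRT71, KRT27 and KRT35 (adjusted p = 0.0458, 0.0454 and 0.0458), and they summed to 1.02 to 178 against 232 to 9884, and KRT27 and KRT35 were listed at 0 in the white sample of pig 2. The 4 measured keratinocyte markers were not called in limma (1 at an unadjusted p below 0.05) and their sums overlapped, at 129 to 695 against 380 to 585. Smooth muscle genes were higher in white skin, with 4 of 5 called and sums of 3517 to 5184 against 201 to 1022, and of 2 measured skeletal muscle genes CKM was called higher in white skin, with sums of 29.8 to 66.4 against 1.41 to 5.01. In bulk skin, fewer cells of a type and less RNA per cell cannot be told apart. The part of these markers in the HOX results was not tested.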

How the data were processed

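Expression was compared between white (back) and black (buttock) skin (n = 3 each). The authors aligned strand-specific poly(A) reads to Sscrofa11.1 (TopHat in the paper, HISAT2 2.0.4 in the submitters' processing notes) and deposited FPKM values from StringTie 1.3.3, for mRNAs above 0.5 and lncRNAs above 0.1 in at least 1 sample. The paper gives read totals per library, but FPKM holds no counts, so the reads behind each value were not derived and no counting intervals are given. The summed FPKM of mRNAs was 408598 to 501424 per sample, and the median 4.46 to 4.96 in white and 5.65 to 6.70 in black skin.

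All 14900 mRNAs were fitted with limma 3.58.1 in R 4.3.3, with trend, on log2(FPKM + 0.5), and all 7566 lncRNAs on log2(FPKM + 0.1), with Benjamini-Hochberg adjustment over all. The pig was left out, as in the paper's own test. The 2 samples of a pig come from the same animal, and their deviations from the group means correlated across mRNAs (r = 0.208, 0.360 and 0.204), so the blocked value is given where it changes a call. P-values of the main fit rest on the spread between samples of the same skin, moderated by limma over all mRNAs, and ignore the pairing. Those of the fit with the block rest on the spread of the differences within pigs. Both cover only these 3 animals. Ratios, given without a test, and summaries were computed in Python 3.11.15 with SciPy 1.17.1. The model was tested on simulated data.

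Identifiers were named from the supplementary lists, held in shortened form, and from a reference table that named 12236 of 14900 mRNAs (82.1%). Listed loci come from the supplement and neighbouring spans from RefSeq. The HOX genes of paralogs 1 to 8 are named, apart from results not reported here. From lists of cofactors, regulators, neighbours, patterning factors and cell type markers, called genes and up to 3 others with the largest change are named, as are the 2 mRNAs with a mean FPKM of at least 1 most correlated with each gene. PBX3 was added after its value was seen. The members and lists were chosen with earlier results of these data known. Alternatives were other pseudocounts, the pig as a block, upper-quartile and quantile scaling, limma without trend, a filter on mean FPKM, p before adjustment, and leaving out each sample. No sequences were used here.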

Additional observations from a re-analysis of the deposited data

How the results depend on the processing

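No gene of the 6 in the supplementary lists was called in the model without the pig; with the pig as a block 1 was called (HOXA5), with p before adjustment 2 (HOXA5 and HOXC5), and with 1 sample left out 0 to 2, the latter without the black sample of pig 1 (HOXA5 and HOXD4). Of the 17 genes, 1 was called, 2 with the pig as a block, 0 with quantile normalization, and 0 to 3 with 1 sample left out, with 3 only without the black sample of pig 1 and 0 without any other. The counts over the 17 genes were added after the data were seen. The log2 fold change of HOXA2 ranged from -0.86 to 0.074 with 1 sample left out and was positive only without the black sample of pig 2. The other 5 genes of the 6 kept their sign under all alternatives run, as did the 3 ratios; an exact permutation test of a ratio cannot give a p below 0.1 with 3 samples against 3, or below 0.25 over the 3 pigs as a block, so none was used. HOXA2, HOXB8 and HOXC5 fell under the filter of a mean FPKM of 1 and have no value there. Over all mRNAs, 930 were called (539 lower in white skin), 1439 (957 lower) with the block, 700 (217 lower) with quantile normalization, 852 (294 lower) with upper-quartile scaling, and 35 to 847 with 1 sample left out. With the limma p before adjustment and the same fold change threshold, 2288 of the 14900 mRNAs passed (15.4%). The block changed no other call among the 6 genes or the 3 lncRNAs. With 3 samples per skin and FPKM near the 0.5 added, differences of the genes with low values cannot be measured precisely, and the causes of the changes between settings were not tested.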

Other observations

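Other transcription factors that mark body regions were measured beside the HOX genes. Of 29 such factors 22 were measured, 17 with a negative and 5 with a positive log2 fold change, with a median of -0.61. Over all mRNAs 69.1% were negative, with a median of -0.31. In white skin 3 were called lower and 1 higher, where 3.62% and 2.62% of all mRNAs were. With quantile normalization 2 were called, ZIC1 and FOXD1, and none of the 3 lower ones. ZIC1, a zinc finger factor of the dorsal neural tube and dorsal somite, was called higher, at 6.04, 11.3 and 8.04 FPKM in white skin and 1.83, 3.07 and 2.20 in black skin (log2 difference of 1.62, adjusted p = 0.0289, limma). Each white sample of ZIC1 was above each black sample, the same direction as HOXC5. FOXD1, a forkhead factor known from skin fibroblasts and kidney, was also positive, at 1.47 (adjusted p = 0.0792, limma).

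The factors called lower in white skin were the homeobox genes MEOX1 and MEOX2, which act in somites and vessels, and SHOX2, a limb and heart factor. MEOX1 was at 0.938, 1.21 and 1.82 FPKM in white and 3.12, 8.38 and 11.2 in black skin (log2 difference of -2.01, adjusted p = 0.0426, limma). MEOX2 was at 1.97, 1.78 and 2.25 in white and 4.79, 6.71 and 11.4 in black skin (log2 difference of -1.62, adjusted p = 0.0345, limma). For both, as for HOXA5, the black sample of pig 1 was the lowest and that of pig 3 the highest of the black samples. The black sample of pig 1 was the lowest of these for 44.0% of all mRNAs. SHOX2 had a log2 fold change of -1.48 (adjusted p = 0.0476, limma). DLX3, a hair follicle and epidermis factor, had one of -2.50 (adjusted p = 0.10, limma) with 26.3 FPKM in the black sample of pig 1 and 2.74 in that of pig 3.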
